A study of Dichomitus squalens with 16 samples.

Results

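The genes described here are the 47 predicted carriers of nitrogen sources of Dichomitus squalens, a basidiomycete that causes white rot of wood (strain LYAD-421 SS1). They are all genes whose protein database description in the deposited files named an amino acid transporter or permease, a peptide, ammonium, nitrate or urea transporter, a purine permease, or allantoin. Of 11410 genes with reads, 47 met this rule: 23 amino acid transporters, 16 peptide transporters, 4 purine permeases, 2 ammonium transporters, 1 urea transporter and 1 allantoinase, which is an enzyme of purine breakdown and not a carrier. No description named a nitrate transporter, and no measured value entered the choice. All 47 had reads in all 16 libraries and passed the filter on low counts, so none was lost to it. The identities rest on descriptions alone, and what each protein carries was not measured.

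The mycelium was precultured for 4 days at 28 °C in a low-nitrogen medium of asparagine and succinate (LN-AS, pH 4.5) with 6.8 mM glycerol. A homogenised suspension of it was then grown in 100 ml of LN-AS with 1 g of plant material. The wood substrates were sawdust of spruce (Picea abies) and of aspen (Populus tremula), and the non-woody substrates were powders of wheat bran and of cotton seed hulls. Colonised substrate was collected on day 16 and day 9, which gave 8 groups of 2 libraries, and all 8 share the strain and the asparagine medium, so none is a culture without added nitrogen or without plant material.

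As background, fungi take up nitrogen through membrane carriers that differ in what they move: ammonium transporters of the Amt/Mep family, broad and specific amino acid permeases, carriers of short peptides, and permeases for urea and purines. In Saccharomyces cerevisiae the general amino acid permease Gap1, the ammonium permeases and the urea permease Dur3 are held low while a preferred nitrogen source is at hand and are induced when it runs short. Wood is poor in nitrogen relative to carbon, which is why nitrogen recycling and uptake have long been studied in white-rot fungi, while wheat bran brings protein with it.

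Each library held 7.98 to 8.85 M unique reads. Read counts of replicate libraries differed by 1.69 (wheat bran, day 16) to 30.7 (aspen, day 9) times the variance of counting alone, so no pair agreed within counting noise. The aspen and spruce groups of day 9 varied most. No label says that replicates were separate cultures, so every p below measures the spread between libraries, which may be technical. For each gene the fit shared its estimate of that spread over all groups. A p therefore does not rest on the spread of the compared libraries alone, although the groups differ in it. Levels are deposited RPKM, reads divided by the gene model's length and the library's total of unique reads, given as both values or as mean ± SD of 2 libraries. Differences are log2 fold changes ± SE of TMM-scaled reads from edgeR. Their p is Benjamini-Hochberg adjusted over 10584 genes, and a gene under 0.05 is called. Because TMM scaling centres each comparison on most genes and RPKM does not, scaling by library size alone moved the median of all genes in wood against non-woody substrates by 0.48 on day 16 and by 0.28 on day 9. A fold change can differ from a ratio of RPKM by about that much. All 18 manganese peroxidase and laccase genes, the lignin-modifying enzymes that mark a white-rot fungus, had reads in every library. Of 87 ribosomal protein genes, 67 were higher and 4 lower on wood on day 16 (median log2 fold change 0.48). On day 9, 63 were higher and 12 lower (median 0.68). Their part in the differences below was not tested. In these bulk cultures, fewer hyphae that use a gene and less RNA per hypha cannot be told apart.

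The 47 genes together held most transcript on cotton seed hulls on day 16 and least on spruce on day 16. On every substrate and day peptide transporters made up the largest share of the sum. On day 16 the summed level of all 47 genes was 4441 ± 42.5 RPKM on spruce, 6625 ± 773 RPKM on aspen, 7823 ± 66.6 RPKM on wheat bran and 9929.9 ± 356 RPKM on cotton seed hulls (SD, n = 2). On day 9 it was 6525 ± 404 RPKM on spruce, 6942 ± 102 RPKM on aspen, 7266 ± 119.5 RPKM on wheat bran and 7667 ± 69.9 RPKM on cotton seed hulls. The sum rests on few genes: on cotton seed hulls on day 16 the peptide transporter DICSQDRAFT_94742 alone gave 65.2% of it. Amino acid transporters summed to 2674 ± 248 RPKM on spruce and 1984 ± 185 RPKM on aspen on day 9, against 1183 ± 43.8 RPKM on wheat bran and 867 ± 19.1 RPKM on cotton seed hulls. Peptide transporters showed the other order on that day, with 2914 ± 99.4 RPKM on spruce and 4166 ± 319 RPKM on aspen, against 5830.3 ± 73.3 RPKM on wheat bran and 6647 ± 96.0 RPKM on cotton seed hulls. These peptide sums also rest on few genes. On day 9 DICSQDRAFT_82049 gave 41.2% of the sum on wheat bran, and DICSQDRAFT_94742 gave 50.8% on cotton seed hulls. The sums are descriptions, and none was tested.

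**Figure D1:**
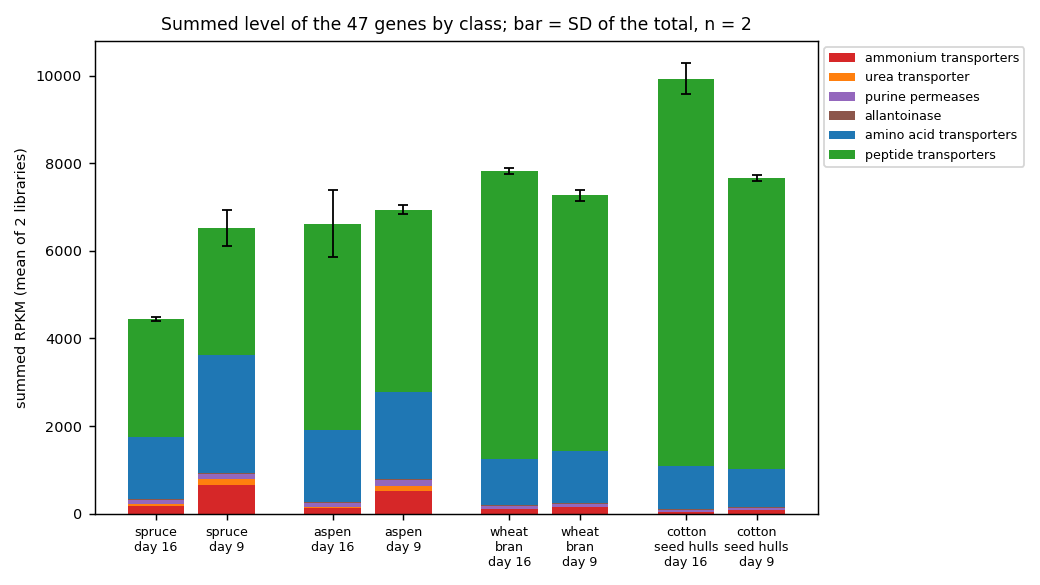
Summed RPKM of the 47 genes in each of the 8 groups, stacked by class, with each bar the mean of 2 libraries and the error bar the SD of the total. Peptide transporters (green) are the largest part in every group, and the amino acid part (blue) is tallest on spruce on day 9, at 2674 RPKM.

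Levels ranged widely among the members. The highest group mean was at least 100 RPKM for 15 genes and under 10 RPKM for 5. The ratio of a gene's highest to its lowest group mean had a median of 3.96 over the 47 genes, against 2.86 over all genes tested, and ranged between 1.66 and 40.3. It passed 10-fold for 9 members and stayed under 2-fold for 5. Aspen on day 9 was the highest group for 15 members and spruce on day 9 for 10, while cotton seed hulls on day 16 was the lowest for 22. The map of all members by library shows these blocks: the upper rows are mostly red in the day 9 wood columns, and several peptide transporters are red in the non-woody columns instead.

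**Figure D2:**
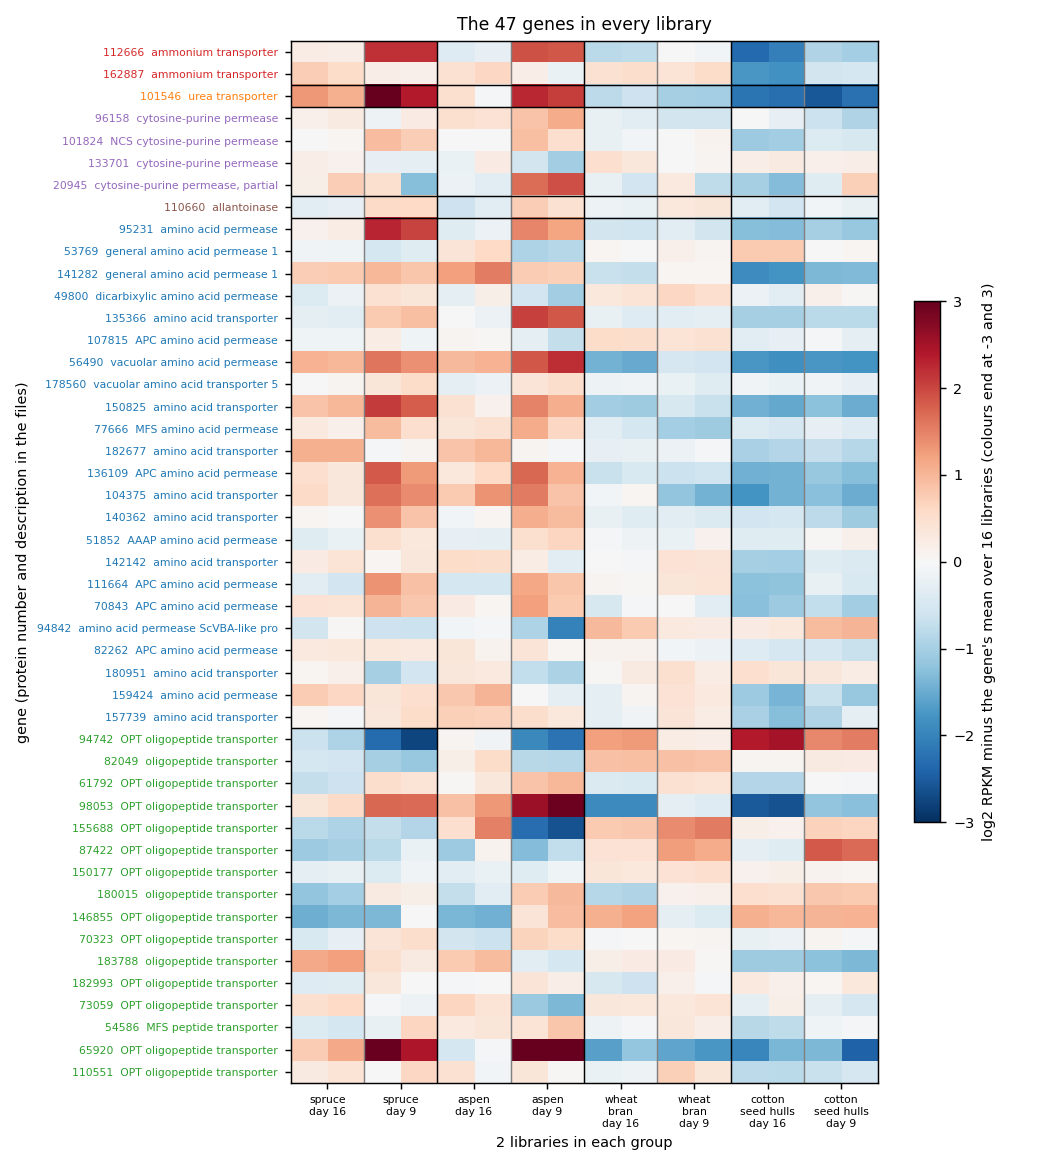
Level of each of the 47 genes (rows, named by the digits of the identifier and the description in the files, coloured by class) in each of the 16 libraries (columns), as log2 RPKM minus the gene's mean over the libraries, with colours ending at -3 and 3. Red in the 4 wood libraries of day 9 marks DICSQDRAFT_112666, DICSQDRAFT_101546, DICSQDRAFT_95231 and DICSQDRAFT_65920, and red on cotton seed hulls marks DICSQDRAFT_94742.

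Wood differed from the non-woody substrates at most of these genes, as it did at most genes of the fungus. On day 16, 18 members were higher and 19 lower on wood, when 29.7% of all genes tested were called higher and 30.0% lower. On day 9, 24 were higher and 13 lower, against 37.4% and 34.2% of all genes. With library size as the only scaling the split was 27 higher and 9 lower on day 16 and 29 higher and 12 lower on day 9. The median log2 fold change of the members was -0.04 on day 16 and 0.21 on day 9, against 0.03 and 0.03 over all genes. The amino acid transporters were called higher on wood more often than lower, with 12 higher and 8 lower of 23 on day 16 and 14 higher and 5 lower on day 9. Library size alone gave 15 higher and 2 lower on day 16 and 17 higher and 5 lower on day 9. The peptide transporters had 3 higher and 9 lower of 16 on day 16 and 5 higher and 7 lower on day 9. With library size alone these became 7 higher and 7 lower and 6 higher and 6 lower. The 2 days share no library: 14 members were higher on wood on both, 12 were lower on both and 4 were called in opposite directions. These are 29.8%, 25.5% and 8.51% of the members, against 18.6%, 20% and 8.04% of all genes tested.

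The 2 ammonium transporters, which bring ammonium into the cell, differed strongly in level and in pattern. DICSQDRAFT_112666 had 161 and 157 RPKM on spruce and 106 and 117 on aspen, against 79.4 and 81.5 on wheat bran and 27.5 and 33.3 on cotton seed hulls on day 16. Day 9 gave 635 and 629.6 RPKM on spruce and 521 and 501 on aspen, against 137 and 130.1 on wheat bran and 73.3 and 68.3 on cotton seed hulls. The groups of libraries fell in the order spruce and aspen on day 9, spruce on day 16, wheat bran on day 9, aspen on day 16, wheat bran on day 16, and cotton seed hulls on day 9 and then day 16, and no neighbours in that order overlapped. It was higher on wood on day 16 (log2 fold change 0.95 ± 0.07, edgeR adjusted p = 1.85e-09). The difference on day 9 was larger (log2 fold change 2.27 ± 0.07, edgeR adjusted p = 1.08e-14). Its level was lower on day 16 than on day 9 on all 4 substrates and each difference was called. The log2 fold changes were -2.003 ± 0.09 for spruce, -2.34 ± 0.09 for aspen, -0.72 ± 0.09 for wheat bran and -0.97 ± 0.09 for cotton seed hulls. The fall was larger on wood, with a log2 difference of day effects of -1.32 ± 0.09 (edgeR adjusted p = 4.13e-09). It was also higher on wheat bran than on cotton seed hulls on day 16 (log2 fold change 0.93 ± 0.09, edgeR adjusted p = 1.08e-06).

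The other ammonium transporter, DICSQDRAFT_162887, stayed low and was lowest on cotton seed hulls. On day 16 DICSQDRAFT_162887 had 15.8 and 13.9 RPKM on spruce and 13.0 and 14.7 on aspen, against 13.1 and 13.7 on wheat bran and 2.84 and 2.69 on cotton seed hulls. Day 9 gave 10.9 and 10.6 RPKM on spruce and 10.9 and 8.21 on aspen, against 12.5 and 13.9 on wheat bran and 6.49 and 6.54 on cotton seed hulls. All 4 cotton seed hull libraries lay below the other 12, and on day 16 the aspen libraries overlapped those of spruce and of wheat bran. On day 16 it was higher on wheat bran than on cotton seed hulls (log2 fold change 1.80 ± 0.16, edgeR adjusted p = 2.98e-07). On wood it was higher than on the non-woody mean (log2 fold change 0.75 ± 0.10, edgeR adjusted p = 9.66e-06), although the aspen and wheat bran libraries overlapped. The day 9 difference between wood and non-woody substrates did not pass the threshold (log2 fold change -0.15 ± 0.10, edgeR adjusted p = 0.179). It fell with time on cotton seed hulls (log2 fold change -0.98 ± 0.17, edgeR adjusted p = 4.49e-04). On wood the day effects were small and rested on few libraries. The log2 fold change was 0.46 ± 0.13 on spruce, where the call was lost without the first day 16 spruce library (adjusted p = 0.0994). It was 0.40 ± 0.13 on aspen, where the call was lost without the second day 9 library (0.25, adjusted p = 0.192) and without the second day 16 library (adjusted p = 0.131). The summed ammonium transporter level therefore follows the first gene, as the plot of ammonium, urea and amino acid transporters by library shows.

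The urea transporter DICSQDRAFT_101546, which imports urea, had the largest wood difference of day 9 outside the peptide class. On day 16 DICSQDRAFT_101546 had 56.2 and 47.5 RPKM on spruce and 31.8 and 22.0 on aspen, against 13.1 and 14.7 on wheat bran and 4.95 and 4.75 on cotton seed hulls. Day 9 gave 194 and 118 RPKM on spruce and 108 and 95.8 on aspen, against 11.4 and 11.2 on wheat bran and 3.92 and 4.81 on cotton seed hulls. Each wood library lay above each non-woody library on both days, although the 2 spruce libraries of day 9 were far apart. The difference on day 16 (log2 fold change 1.70 ± 0.18, edgeR adjusted p = 7.18e-06) was smaller than that on day 9 (log2 fold change 3.89 ± 0.18, edgeR adjusted p = 2.95e-09). By day 16 the gene had fallen on spruce (log2 fold change -1.60 ± 0.21, edgeR adjusted p = 8.73e-05) and on aspen (log2 fold change -2.06 ± 0.22, edgeR adjusted p = 9.70e-06). The log2 day effects on wheat bran (0.31 ± 0.25) and cotton seed hulls (0.40 ± 0.31) were not called. The day effects on wood and on the non-woody substrates differed (log2 difference -2.19 ± 0.25, edgeR adjusted p = 2.41e-05). Wheat bran libraries lay above cotton seed hull libraries on both days, with log2 fold changes of 1.05 ± 0.27 on day 16 and 1.14 ± 0.28 on day 9. Leaving out a library ended these calls (adjusted p = 0.0554, 0.0725 and 0.0666 without the first or second cotton seed hull or the second wheat bran library of day 16, and 0.0684 without the first cotton seed hull library of day 9).

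Of the 4 cytosine-purine permeases, which take up purine and pyrimidine bases, DICSQDRAFT_96158 and DICSQDRAFT_101824 held most of the class's summed RPKM. On day 16 DICSQDRAFT_96158 had 40.7 and 43.8 RPKM on spruce and 51.3 and 49.5 on aspen, against 31.3 and 29.5 on wheat bran and 37.2 and 30.9 on cotton seed hulls. Day 9 gave 33.1 and 43.5 RPKM on spruce and 66.2 and 78.9 on aspen, against 25.2 and 25.1 on wheat bran and 23.4 and 19.5 on cotton seed hulls. Aspen on day 9 was its highest group and did not overlap the others. The gene was higher on wood on day 9 (log2 fold change 0.91 ± 0.10, edgeR adjusted p = 7.67e-07), with no call on day 16 (log2 fold change 0.04 ± 0.10, edgeR adjusted p = 0.781). In RPKM each wood library of day 16 still lay above each non-woody library. The day 16 result of the class depended on the scaling: library size alone called 2 of the 4 permeases higher on wood and 0 lower, against 0 and 1 with TMM. For DICSQDRAFT_96158 spruce was below aspen on day 9 (log2 fold change -1.14 ± 0.14, edgeR adjusted p = 4.65e-05). On cotton seed hulls it rose by day 16 (log2 fold change 0.92 ± 0.15, edgeR adjusted p = 2.37e-04), and on aspen it fell (log2 fold change -0.67 ± 0.14, edgeR adjusted p = 5.54e-04). Its lower level on wheat bran than on cotton seed hulls on day 16 (log2 fold change -0.63 ± 0.14, edgeR adjusted p = 0.00342) did not hold with library size alone (adjusted p = 0.301) or without the first cotton seed hull library (adjusted p = 0.0673). DICSQDRAFT_101824 averaged 60.7 ± 5.59 RPKM on spruce and 55.9 ± 11.04 RPKM on aspen on day 9, against 35.5 ± 1.61 RPKM on wheat bran and 24.9 ± 0.799 RPKM on cotton seed hulls (SD, n = 2 each). It was higher on wood on day 9 (log2 fold change 0.69 ± 0.07, edgeR adjusted p = 2.10e-07). By day 16 it had fallen, with log2 fold changes of -0.83 ± 0.10 for spruce and -0.85 ± 0.10 for aspen.

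The remaining purine permeases were near the low end of the counts. DICSQDRAFT_133701 lay between 1.55 and 4.56 RPKM and was lower on wood on day 9 (log2 fold change -0.91 ± 0.13, edgeR adjusted p = 5.30e-06). Its day 16 call (log2 fold change -0.70 ± 0.12, edgeR adjusted p = 6.13e-05) ended with library size alone (adjusted p = 0.104). Its rise on aspen (log2 fold change 0.69 ± 0.18, edgeR adjusted p = 0.00349) was lost without the second day 16 aspen library (0.44, adjusted p = 0.0761) and without the second day 9 aspen library (adjusted p = 0.0550). DICSQDRAFT_20945, a partial gene model with as few as 6 reads in a library, had 3.99 and 4.77 RPKM on aspen on day 9 and at most 2.08 RPKM in the other 14 libraries. It was lower on spruce than on aspen on day 9 (log2 fold change -2.15 ± 0.40, edgeR adjusted p = 0.00125), and the value became -3.27 without the first spruce library. Fitted on those groups alone, the call was lost (adjusted p = 0.0616). The allantoinase DICSQDRAFT_110660, which opens the ring of allantoin during purine breakdown, fell by day 16 on spruce (log2 fold change -0.88 ± 0.12, edgeR adjusted p = 1.12e-05), aspen (log2 fold change -1.20 ± 0.12, edgeR adjusted p = 1.88e-07) and, less far, wheat bran (log2 fold change -0.51 ± 0.12, edgeR adjusted p = 0.00640). The wheat bran call was lost without the second day 16 library (adjusted p = 0.0616) or the second day 9 library (adjusted p = 0.0534). It averaged 19.0 ± 0.705 RPKM on spruce on day 16 against 34.4 ± 0.248 RPKM on day 9, and 16.7 ± 2.38 RPKM on aspen on day 16 against 35.0 ± 4.78 RPKM on day 9 (SD, n = 2 each). Its differences between wood and non-woody substrates did not hold. The day 16 value (log2 fold change -0.53 ± 0.09, edgeR adjusted p = 5.54e-05) was -0.05 with library size alone (adjusted p = 0.620). The day 9 value (log2 fold change 0.22 ± 0.08, edgeR adjusted p = 0.0232) lost its call without the first aspen library (adjusted p = 0.0915), without the second cotton seed hull library (adjusted p = 0.109) and without the first or second wheat bran library (adjusted p = 0.0634 and 0.0584).

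Among the 23 amino acid transporters, 6 carry the same KEGG orthology group of amino acid permeases in the files, and these include the 3 genes of this class with the highest levels. The others with a KEGG group fall in different groups, of 9, 3, 2 and 2 genes. Whether those groups name the same function as the descriptions was not checked, so the class rests on the descriptions. The amino acid permease DICSQDRAFT_95231 was the most abundant of the class on wood on day 9. On day 16 DICSQDRAFT_95231 had 338 and 359 RPKM on spruce and 239.6 and 271 on aspen, against 209 and 202 on wheat bran and 126 and 126 on cotton seed hulls. Day 9 gave 1488 and 1248 RPKM on spruce and 855 and 701 on aspen, against 242 and 211 on wheat bran and 153 and 140.4 on cotton seed hulls. Both spruce libraries of day 9 lay above both aspen libraries, and both of these lay far above the other 12 libraries of the study. The gene was higher on wood on day 9 (log2 fold change 2.22 ± 0.08, edgeR adjusted p = 1.62e-13) and, less far, on day 16 (log2 fold change 0.40 ± 0.08, edgeR adjusted p = 2.47e-04). It fell by day 16 on spruce (log2 fold change -1.99 ± 0.11, edgeR adjusted p = 5.22e-10) and on aspen (log2 fold change -1.75 ± 0.11, edgeR adjusted p = 8.74e-10). Neither wheat bran (-0.12 ± 0.11) nor cotton seed hulls (0.03 ± 0.11) had a called log2 day effect. The log2 difference between wood and non-woody day effects was -1.82 ± 0.11 (edgeR adjusted p = 8.63e-10).

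The 2 genes described as general amino acid permease 1, the name of the broad permease Gap1 of S. cerevisiae, differed between wood and non-woody substrates in opposite directions. On day 16 DICSQDRAFT_141282 had 272 and 279 RPKM on spruce and 379.8 and 469 on aspen, against 102 and 99.4 on wheat bran and 43.8 and 46.8 on cotton seed hulls. The day 9 values were 323 and 287 RPKM on spruce and 276 and 265 on aspen, against 170.0 and 169.7 on wheat bran and 64.2 and 65.2 on cotton seed hulls. Every wood library was above every non-woody library on both days. The log2 fold change was 1.86 ± 0.07 on day 16 (edgeR adjusted p = 9.40e-13) and 1.18 ± 0.07 on day 9 (edgeR adjusted p = 1.03e-10). With time it rose on aspen (log2 fold change 0.51 ± 0.10, edgeR adjusted p = 1.99e-04), by 0.34 without the second day 16 library. On wheat bran it fell (log2 fold change -0.75 ± 0.10, edgeR adjusted p = 5.22e-05). Wheat bran was above cotton seed hulls for this gene on day 16 (log2 fold change 0.68 ± 0.10, edgeR adjusted p = 6.51e-05) and on day 9 (log2 fold change 1.16 ± 0.10, edgeR adjusted p = 2.13e-07).

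DICSQDRAFT_53769, the second of the pair, had 272 and 264 RPKM on spruce and 381 and 438 on aspen, against 300.5 and 294 on wheat bran and 501 and 499 on cotton seed hulls on day 16. Day 9 gave 203 and 224 RPKM on spruce and 152 and 161 on aspen, against 322 and 309 on wheat bran and 289 and 304 on cotton seed hulls. Cotton seed hulls on day 16 was its highest group and aspen on day 9 its lowest. Wood was lower on day 9 (log2 fold change -1.02 ± 0.07, edgeR adjusted p = 5.92e-10). It was also lower on day 16 (log2 fold change -0.70 ± 0.07, edgeR adjusted p = 1.25e-07), although the aspen libraries lay above the wheat bran libraries. By day 16 it had risen on aspen (log2 fold change 1.25 ± 0.10, edgeR adjusted p = 9.42e-09) and cotton seed hulls (log2 fold change 1.00 ± 0.10, edgeR adjusted p = 9.14e-07). On day 16 it was lower on wheat bran than on cotton seed hulls (log2 fold change -1.22 ± 0.10, edgeR adjusted p = 7.07e-08) and lower on spruce than on aspen (log2 fold change -0.70 ± 0.10, edgeR adjusted p = 6.29e-05). A small rise on spruce (log2 fold change 0.31 ± 0.10, edgeR adjusted p = 0.0117) lost its call without the first spruce library of day 9 (adjusted p = 0.0951) and without the first of day 16 (adjusted p = 0.0762).

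**Figure D3:**
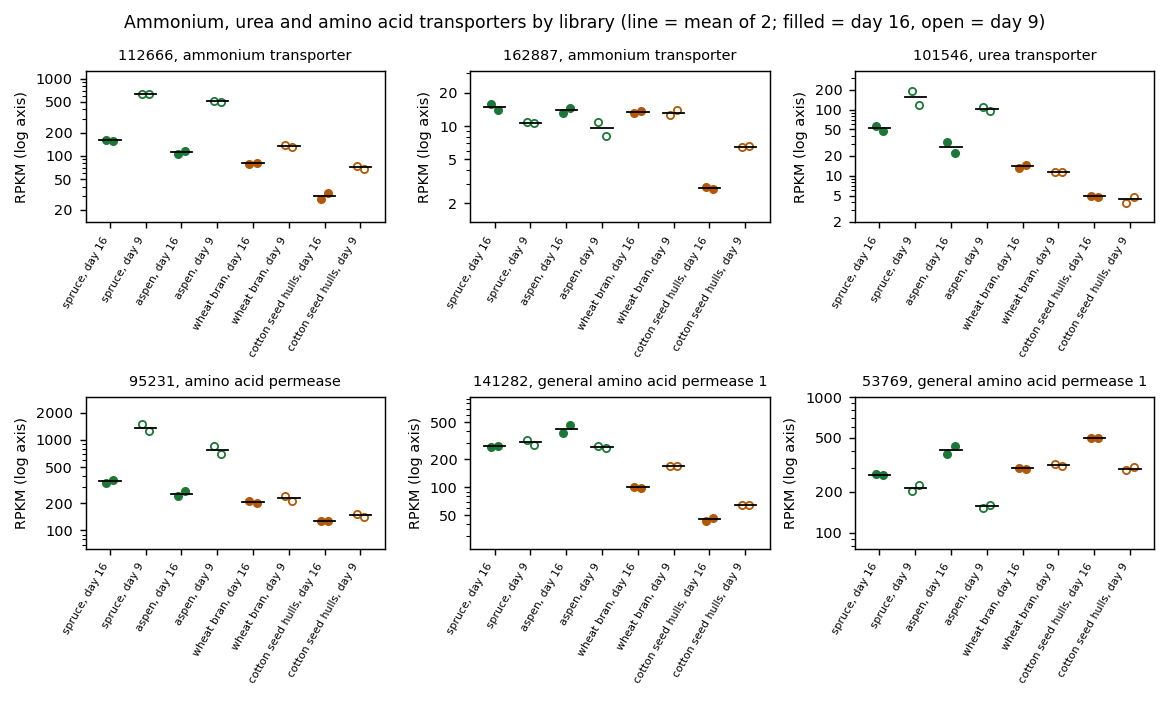
RPKM on log axes of 2 ammonium transporters, the urea transporter and 3 amino acid permeases in each of the 16 libraries, filled on day 16 and open on day 9, green on wood and brown on non-woody substrates, with a line at each mean of 2. For DICSQDRAFT_112666, DICSQDRAFT_101546 and DICSQDRAFT_95231 the open green points stand highest, while DICSQDRAFT_53769 is highest on cotton seed hulls on day 16, at 500.1 RPKM.

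Several amino acid transporters of middle level were higher on wood. The vacuolar amino acid permease DICSQDRAFT_56490, named for the vacuole, where fungi store amino acids, had 64.4 and 62.6 RPKM on spruce and 61.2 and 65.2 on aspen, against 11.8 and 11.1 on wheat bran and 9.40 and 8.78 on cotton seed hulls on day 16. Day 9 gave 95.2 and 80.9 RPKM on spruce and 115 and 147 on aspen, against 22.2 and 21.2 on wheat bran and 9.31 and 9.03 on cotton seed hulls. All wood libraries were above all non-woody libraries on both days. The log2 fold change was 2.15 ± 0.10 on day 16 and 2.65 ± 0.09 on day 9 (edgeR adjusted p = 6.11e-12 and 1.21e-13). It fell by day 16 on aspen (log2 fold change -1.20 ± 0.12, edgeR adjusted p = 1.88e-07), wheat bran (log2 fold change -0.91 ± 0.14, edgeR adjusted p = 2.04e-04) and, less far, spruce (log2 fold change -0.48 ± 0.12, edgeR adjusted p = 0.00267). The amino acid transporter DICSQDRAFT_135366 averaged 73.6 ± 4.59 RPKM on spruce and 159.9 ± 14.3 RPKM on aspen on day 9, and lay between 20.4 and 41.5 RPKM in the other 12 libraries. It was higher on wood on day 9 (log2 fold change 1.68 ± 0.06, edgeR adjusted p = 2.98e-13) with no call on day 16 (log2 fold change -0.02 ± 0.06, edgeR adjusted p = 0.778). Spruce was below aspen on day 9 (log2 fold change -1.33 ± 0.09, edgeR adjusted p = 8.90e-08). DICSQDRAFT_104375 was higher on wood on both days, with log2 fold changes of 1.09 ± 0.17 on day 16 and 2.45 ± 0.17 on day 9. It rose with time on wheat bran (log2 fold change 1.31 ± 0.26, edgeR adjusted p = 0.00342), where leaving out the second day 9 library gave an adjusted p of 0.05002. Wheat bran was above cotton seed hulls on day 16 (log2 fold change 1.11 ± 0.27, edgeR adjusted p = 0.00683), a call lost without the first cotton seed hull library (adjusted p = 0.0656).

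Other members of the class had another time course or were lower on wood. DICSQDRAFT_182677 was highest on wood late: on day 16 it had 47.7 and 47.1 RPKM on spruce and 41.2 and 45.2 on aspen, against 19.2 and 19.6 on wheat bran and 11.6 and 12.4 on cotton seed hulls. Day 9 gave 21.6 and 24.1 RPKM on spruce and 23.9 and 21.7 on aspen, against 20.02 and 22.1 on wheat bran and 14.1 and 12.6 on cotton seed hulls, so the wood libraries overlapped those of wheat bran. It rose by day 16 on spruce (log2 fold change 1.04 ± 0.10, edgeR adjusted p = 2.12e-07) and aspen (log2 fold change 0.78 ± 0.10, edgeR adjusted p = 3.02e-06). Wood and non-woody day effects differed by 0.91 ± 0.10 on the log2 scale (edgeR adjusted p = 1.34e-06). DICSQDRAFT_94842, described as like a vacuolar basic amino acid permease of S. cerevisiae, was lower on wood on day 16 (log2 fold change -1.22 ± 0.14, edgeR adjusted p = 9.88e-07) and day 9 (log2 fold change -1.91 ± 0.15, edgeR adjusted p = 5.04e-09). It averaged 5.35 ± 0.0562 RPKM on spruce and 3.19 ± 1.62 RPKM on aspen on day 9, against 9.98 ± 0.313 RPKM on wheat bran and 16.4 ± 0.615 RPKM on cotton seed hulls. DICSQDRAFT_49800, a dicarboxylic amino acid permease by its description and so a candidate carrier of aspartate and glutamate, was lower on wood on both days with overlapping libraries. Its log2 fold changes were -0.71 ± 0.10 on day 16 and -0.79 ± 0.10 on day 9. With library size alone the day 16 call was lost (-0.23, adjusted p = 0.0779). On day 9 it was higher on spruce than on aspen (log2 fold change 1.00 ± 0.15, edgeR adjusted p = 2.82e-04). By time, 3 of the 23 rose and 13 fell on spruce, and 9 rose and 11 fell on aspen, beside 23.6% and 27.0% of all genes called higher and lower on spruce and 31.5% and 32.1% on aspen. On wheat bran 3 rose and 3 fell, beside 9.13% and 8.16% of all genes. On cotton seed hulls 3 rose and 1 fell, beside 15.7% and 12.7%, or 1 and 5 with library size alone.

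Of the 16 peptide transporters, those described as OPT proteins belong to a family that carries short peptides together with protons. DICSQDRAFT_82049 and DICSQDRAFT_54586 carry the KEGG group of the proton-dependent family that moves di- and tripeptides. The OPT gene DICSQDRAFT_94742 had the highest level of all 47. On day 16 DICSQDRAFT_94742 had 772 and 634 RPKM on spruce and 1271 and 1124 on aspen, against 2836 and 2891 on wheat bran and 6218 and 6739 on cotton seed hulls. Day 9 gave 242 and 178 RPKM on spruce and 313 and 258 on aspen, against 1405 and 1372 on wheat bran and 3265 and 3486 on cotton seed hulls. The groups fell in the order cotton seed hulls, wheat bran, aspen and spruce on each day, and no neighbouring groups overlapped in the order of all 8. It was lower on wood on day 16 (log2 fold change -2.71 ± 0.11, edgeR adjusted p = 1.40e-12) and on day 9 (log2 fold change -3.42 ± 0.11, edgeR adjusted p = 4.38e-14). Wheat bran was below cotton seed hulls on day 16 (log2 fold change -1.65 ± 0.15, edgeR adjusted p = 2.56e-07) and on day 9 (log2 fold change -1.51 ± 0.15, edgeR adjusted p = 8.42e-07). By day 16 it had risen on all 4 substrates and each difference was called. The log2 fold changes were 1.73 ± 0.15 for spruce, 1.93 ± 0.15 for aspen, 1.06 ± 0.14 for wheat bran and 1.19 ± 0.14 for cotton seed hulls. Spruce was below aspen on day 16 (log2 fold change -0.85 ± 0.14, edgeR adjusted p = 3.94e-04). The day 9 call (log2 fold change -0.66 ± 0.14, edgeR adjusted p = 0.00381) was lost when those groups were fitted alone (adjusted p = 0.112).

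DICSQDRAFT_82049 was the most abundant peptide transporter on wheat bran on day 9. On day 16 DICSQDRAFT_82049 had 914 and 881 RPKM on spruce and 1474 and 1914 on aspen, against 2409 and 2457 on wheat bran and 1386 and 1389 on cotton seed hulls. The day 9 values were 654 and 592 RPKM on spruce and 735 and 718 on aspen, against 2423 and 2379.5 on wheat bran and 1570.3 and 1565 on cotton seed hulls. Wheat bran gave the 4 highest libraries, and on wood the day 16 libraries lay above those of day 9. It was lower on wood on day 9 (log2 fold change -1.80 ± 0.09, edgeR adjusted p = 5.71e-12) and day 16 (log2 fold change -1.06 ± 0.08, edgeR adjusted p = 1.03e-08), where the aspen libraries overlapped those of the non-woody substrates. Time brought a rise on aspen (log2 fold change 1.08 ± 0.12, edgeR adjusted p = 5.94e-07) and spruce (log2 fold change 0.51 ± 0.12, edgeR adjusted p = 0.00159). Spruce was below aspen on day 16 (log2 fold change -1.01 ± 0.12, edgeR adjusted p = 1.52e-05). Its calls for wheat bran against cotton seed hulls were lost in every leave-one-out fit, with adjusted p of 0.125 to 0.167 on day 16 and 0.0706 to 0.107 on day 9. Its day 9 call for spruce against aspen (log2 fold change -0.44 ± 0.12, edgeR adjusted p = 0.0134) was lost without the second spruce library (adjusted p = 0.0589) and with library size alone (-0.22, adjusted p = 0.122).

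A second OPT gene, DICSQDRAFT_98053, was higher on wood, where DICSQDRAFT_94742 was lower. On day 16 DICSQDRAFT_98053 had 263 and 308 RPKM on spruce and 377 and 507 on aspen, against 54.5 and 54.9 on wheat bran and 35.8 and 33.7 on cotton seed hulls. Day 9 gave 675 and 673 RPKM on spruce and 1225 and 1574 on aspen, against 167 and 158 on wheat bran and 90.6 and 86.8 on cotton seed hulls. Every wood library lay above every non-woody library, on either day. It was higher on wood on day 16 (log2 fold change 2.54 ± 0.11, edgeR adjusted p = 9.72e-12) and day 9 (log2 fold change 2.74 ± 0.11, edgeR adjusted p = 1.40e-12). Spruce was below aspen on day 16 (log2 fold change -0.72 ± 0.15, edgeR adjusted p = 0.00201) and day 9 (log2 fold change -1.27 ± 0.15, edgeR adjusted p = 2.21e-05). With time it fell on all 4 substrates and each difference was called. The log2 fold changes were -1.25 ± 0.15 for spruce, -1.81 ± 0.15 for aspen, -1.56 ± 0.15 for wheat bran and -1.10 ± 0.15 for cotton seed hulls. The difference of day effects was not called (log2 difference -0.20 ± 0.15, edgeR adjusted p = 0.261, 95% interval -0.49 to 0.08).

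DICSQDRAFT_61792 was high everywhere, with 418 and 446 RPKM on spruce and 698 and 863 on aspen, against 512 and 499 on wheat bran and 373 and 375 on cotton seed hulls on day 16. Day 9 gave 980.3 and 911 RPKM on spruce and 1239.7 and 1358 on aspen, against 945 and 918 on wheat bran and 690.2 and 661 on cotton seed hulls. Each substrate had less of it on day 16 than on day 9, and spruce on day 9 overlapped wheat bran on day 9. All 4 falls were called, with log2 fold changes of -1.15 ± 0.11 for spruce, -0.88 ± 0.11 for aspen, -0.87 ± 0.11 for wheat bran and -0.60 ± 0.11 for cotton seed hulls. Its difference between wood and non-woody substrates was small, with log2 fold changes of -0.07 on day 16 (95% interval -0.22 to 0.09, not called) and 0.21 on day 9 (95% interval 0.06 to 0.36, edgeR adjusted p = 0.0251). The day 9 call was lost without the second aspen library (adjusted p = 0.0790), the first spruce library (0.0552), the first or second wheat bran library (0.0503 and 0.0978) and the first or second cotton seed hull library (0.0731 and 0.106).

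The largest difference between wood and non-woody substrates among the 47 genes was that of the OPT gene DICSQDRAFT_65920 on day 9, at a low level. On day 16 DICSQDRAFT_65920 had 4.37 and 5.66 RPKM on spruce and 1.79 and 2.46 on aspen, against 0.825 and 1.15 on wheat bran and 0.663 and 0.996 on cotton seed hulls. Day 9 gave 20.1 and 13.7 RPKM on spruce and 25.8 and 22.7 on aspen, against 0.850 and 0.768 on wheat bran and 1.01 and 0.478 on cotton seed hulls. It was near the low end of the counts on non-woody substrates, with as few as 9 reads in a library, and the 4 wood libraries of day 9 were the highest. The log2 fold change for wood was 4.42 ± 0.19 on day 9 (edgeR adjusted p = 3.23e-12) and 1.36 ± 0.23 on day 16 (edgeR adjusted p = 1.05e-04). It fell by day 16 on aspen (log2 fold change -3.65 ± 0.23, edgeR adjusted p = 9.93e-10) and spruce (log2 fold change -1.77 ± 0.21, edgeR adjusted p = 2.62e-06). The day effects on wood and on the non-woody substrates differed (log2 difference -3.06 ± 0.35, edgeR adjusted p = 1.79e-06). On day 16 it was higher on spruce than on aspen (log2 fold change 1.14 ± 0.26, edgeR adjusted p = 0.00460), a call lost without the first aspen library (adjusted p = 0.0507) or the second spruce library (adjusted p = 0.0605).

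DICSQDRAFT_155688, another OPT gene, changed most with time on aspen. On day 16 DICSQDRAFT_155688 had 75.7 and 69.2 RPKM on spruce and 187 and 377 on aspen, against 228 and 232 on wheat bran and 150.0 and 145 on cotton seed hulls. Day 9 gave 81.0 and 71.7 RPKM on spruce and 27.2 and 21.6 on aspen, against 356 and 389.7 on wheat bran and 213 and 206 on cotton seed hulls. The 2 aspen libraries of day 9 were the lowest of the study for this gene, and the 2 of day 16 differed widely from each other and overlapped wheat bran. It rose on aspen (log2 fold change 3.40 ± 0.28, edgeR adjusted p = 1.55e-06), with no call on spruce (log2 fold change -0.09 ± 0.25, edgeR adjusted p = 0.800). Wood was lower on day 9 (log2 fold change -2.97 ± 0.19, edgeR adjusted p = 1.20e-07) and day 16 (log2 fold change -0.85 ± 0.18, edgeR adjusted p = 0.00190), and the day 16 call ended with library size alone (-0.36, adjusted p = 0.0859). The sign of spruce against aspen turned between the days, with log2 fold changes of -2.05 ± 0.26 on day 16 and 1.44 ± 0.26 on day 9. Neither call held throughout: the adjusted p was 0.116 on day 16 when those groups were fitted alone, and 0.0582 on day 9 without the second aspen library. DICSQDRAFT_87422 had 52.8 and 121 RPKM on aspen on day 16. It was lower on wood on day 9 (log2 fold change -2.48 ± 0.27, edgeR adjusted p = 2.47e-05). It then averaged 80.5 ± 23.7 RPKM on spruce and 56.6 ± 15.3 RPKM on aspen, against 255 ± 14.8 RPKM on wheat bran and 382 ± 25.3 RPKM on cotton seed hulls (SD, n = 2 each). It fell with time on cotton seed hulls (log2 fold change -1.85 ± 0.37, edgeR adjusted p = 0.00568).

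**Figure D4:**
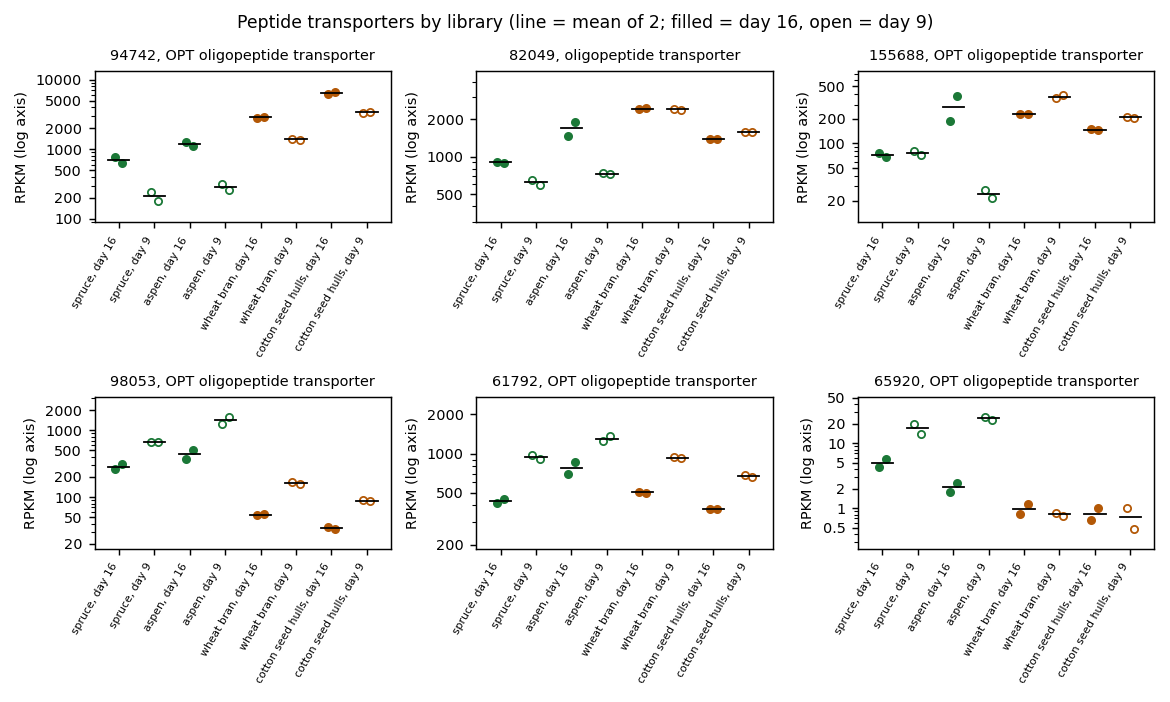
RPKM on log axes of 6 peptide transporters in each of the 16 libraries, filled on day 16 and open on day 9, green on wood and brown on non-woody substrates, with a line at each mean of 2. DICSQDRAFT_94742 is lowest on wood on day 9 and highest on cotton seed hulls on day 16 (6479 RPKM), while DICSQDRAFT_98053 and DICSQDRAFT_65920 are highest on aspen on day 9.

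DICSQDRAFT_146855 separated wood and non-woody substrates on day 16 but not on day 9. On day 16 DICSQDRAFT_146855 had 15.6 and 16.9 RPKM on spruce and 16.6 and 15.9 on aspen, against 90.8 and 100.1 on wheat bran and 90.2 and 85.8 on cotton seed hulls. The day 9 values were 16.9 and 43.0 RPKM on spruce and 56.7 and 81.6 on aspen, against 35.1 and 32.5 on wheat bran and 87.3 and 89.0 on cotton seed hulls. The 4 wood libraries of day 16 all lay below the 4 non-woody ones, and on day 9 the groups overlapped. The log2 fold change for wood was -2.98 ± 0.27 on day 16 (edgeR adjusted p = 1.03e-05) and -0.53 ± 0.25 on day 9 (edgeR adjusted p = 0.0836). The log2 difference of day effects was -2.45 ± 0.36 (edgeR adjusted p = 4.04e-04). It fell on aspen (log2 fold change -2.24 ± 0.37, edgeR adjusted p = 6.47e-04). Other calls for this gene rested on few libraries. The log2 fold change of spruce against aspen on day 9 was -1.43 ± 0.36, -0.90 without the first spruce library, -2.27 without the second, and -1.09 without the second aspen library (adjusted p = 0.143). Its rise on wheat bran (log2 fold change 1.51 ± 0.35, edgeR adjusted p = 0.0185) lost the call in each of the 4 leave-one-out fits (adjusted p = 0.0703 to 0.117). Its lower level on wheat bran than on cotton seed hulls on day 9 (log2 fold change -1.62 ± 0.36, edgeR adjusted p = 0.00802) lost it without the second wheat bran library (adjusted p = 0.0546).

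Among the peptide transporters of lower level, DICSQDRAFT_183788 was higher on wood on day 16 (log2 fold change 0.97 ± 0.07, edgeR adjusted p = 3.09e-09). It then averaged 69.3 ± 3.38 RPKM on spruce and 55.3 ± 4.20 RPKM on aspen, against 35.3 ± 1.18 RPKM on wheat bran and 14.5 ± 0.0645 RPKM on cotton seed hulls (SD, n = 2 each). It was higher on wheat bran than on cotton seed hulls on day 9 (log2 fold change 1.20 ± 0.10, edgeR adjusted p = 2.29e-07). DICSQDRAFT_150177 varied little, with group means between 68.5 and 114 RPKM. It was lower on wood on day 16 (log2 fold change -0.98 ± 0.08, edgeR adjusted p = 9.32e-09) and day 9 (log2 fold change -0.80 ± 0.08, edgeR adjusted p = 6.67e-08). DICSQDRAFT_180015 fell by day 16 on spruce, aspen and wheat bran, with no call on cotton seed hulls. The log2 fold changes were -1.34 ± 0.12 for spruce, -1.54 ± 0.12 for aspen, -1.01 ± 0.12 for wheat bran and -0.06 ± 0.11 for cotton seed hulls. On day 16 wheat bran was below cotton seed hulls (log2 fold change -1.84 ± 0.12, edgeR adjusted p = 6.40e-09). Its day 9 value for wood (log2 fold change -0.19 ± 0.08, edgeR adjusted p = 0.0460) turned sign with library size alone (0.09, adjusted p = 0.303) and lost its call without any 1 library of 7 of the 8 compared (adjusted p = 0.0508 to 0.205).

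Set side by side, the fold changes of day 16 were smaller than those of day 9 for 3 genes that were higher on wood on both days, the more abundant ammonium transporter, the urea transporter and the leading amino acid permease, which the plot of both days shows below the diagonal. For DICSQDRAFT_112666 the values were 0.95 on day 16 and 2.27 on day 9, for DICSQDRAFT_101546 1.70 and 3.89, and for DICSQDRAFT_95231 0.40 and 2.22. Above the diagonal lay DICSQDRAFT_141282 (1.86 on day 16 and 1.18 on day 9) and the ammonium transporter DICSQDRAFT_162887 (0.75 and -0.15). The test of the difference of day effects called 14 members higher and 24 lower, against 25.1% and 27.7% of all genes. The counts were 14 higher and 21 lower with library size alone.

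**Figure D5:**
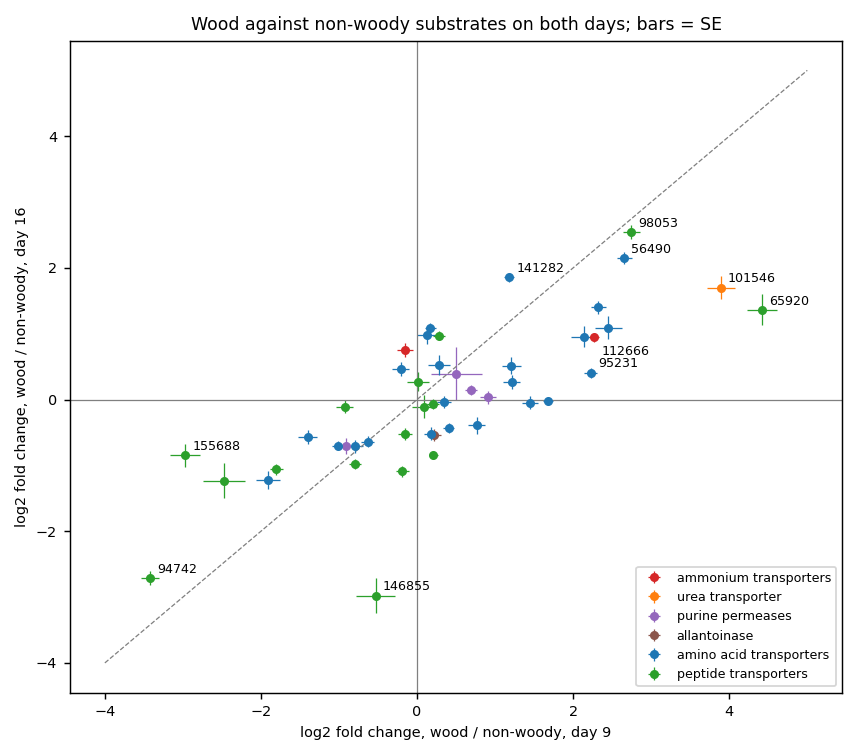
Log2 fold change of wood against non-woody substrates for each of the 47 genes on day 16 (vertical axis) and day 9 (horizontal axis), coloured by class, with bars of 1 SE and the dashed line marking equal values. DICSQDRAFT_65920, DICSQDRAFT_101546 and DICSQDRAFT_95231 lie far below the line on the right, DICSQDRAFT_94742 is low on both axes, and DICSQDRAFT_146855 is low on day 16 only (-2.98).

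Within the wood and within the non-woody substrates, fewer members were called. These comparisons set 2 libraries against 2, where wood against non-woody set 4 against 4, so the numbers of calls are not on an equal footing. Spruce against aspen gave 5 higher and 13 lower members on day 16, against 11.5% and 12% of all genes. On day 9, 6 were higher and 13 lower, against 8.26% and 13.1% of all genes. Leaving out the second spruce library of day 16 reduced the 18 calls of that day to 10, and fitting the day 9 groups alone reduced the 19 calls of day 9 to 7. With library size alone these were 6 and 10 on day 16 and 12 and 10 on day 9. Peptide transporters made up most of the lower ones, 8 of the 13 on day 16 and 8 of the 13 on day 9, and 1 and 3 of them were higher on spruce. The urea transporter was higher on spruce than on aspen on day 16 (log2 fold change 0.86 ± 0.22, edgeR adjusted p = 0.0163), a call lost without the second aspen library (adjusted p = 0.125) or the first spruce library (adjusted p = 0.0973). Wheat bran against cotton seed hulls gave 12 higher and 9 lower members on day 16, against 13.0% and 18.3% of all genes. On day 9, 19 were higher and 8 lower, against 15.2% and 18.5% of all genes. Without the first cotton seed hull library the day 16 count of 21 calls became 12, and without the second wheat bran library 13. The day 9 count of 27 became 16 without the second cotton seed hull library. Library size alone gave 28 and 4 on day 16 and 28 and 5 on day 9. The days share no library, and 10 members were higher and 5 lower on wheat bran on both, with none in opposite directions. These are 21.3% and 10.6% of the members, against 6.50% and 10.7% of all genes, of which 1.28% had opposite calls. For spruce against aspen 2 were higher and 6 lower on both days, and 2 were called in opposite directions. These are 4.25%, 12.8% and 4.25% of the members, against 2.06%, 2.76% and 2.92% of all genes tested.

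More of these genes were called with time on wood than on the non-woody substrates, and the same held over all genes. On spruce 8 members were higher and 24 lower on day 16 than on day 9, against 23.6% and 27.0% of all genes. On aspen 16 were higher and 24 lower, against 31.5% and 32.1% of all genes. On wheat bran 5 were higher and 10 lower, against 9.13% and 8.16%. On cotton seed hulls 8 were higher and 7 lower, against 15.7% and 12.7%. The 15 calls on wheat bran became 9 without either day 9 library or without the second of day 16, and the 15 on cotton seed hulls became 9 without the second day 16 library. Fitting the compared groups alone raised both counts instead, which narrows the gap to wood. Library size alone turned the split on cotton seed hulls to 3 higher and 13 lower, and gave 16 higher and 24 lower on aspen. Spruce and aspen share no library: 8 members rose on both, 21 fell on both and 1 was called in opposite directions. These are 17.0%, 44.7% and 2.13% of the members, against 19.05%, 21.98% and 1.05% of all genes tested. The shared rises were 100% of the members that rose on spruce and 50% of those that rose on aspen, against 80.6% and 60.5% over all genes. The 24 that fell on spruce and the 24 that fell on aspen had 87.5% of each list in common, against 81.5% of the genes that fell on spruce and 68.5% of those that fell on aspen over all genes tested. The gene with opposite calls was the dicarboxylic amino acid permease DICSQDRAFT_49800, which fell on spruce (log2 fold change -0.73 ± 0.15, edgeR adjusted p = 8.07e-04) and rose on aspen (log2 fold change 0.62 ± 0.15, edgeR adjusted p = 0.00215). It is named for this after its values were seen. Over all genes tested, the median day effect was -0.01 on spruce and 0.03 on aspen, and that of the members was -0.50 and -0.46.

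Genes that handle nitrogen inside the cell, 41 by their descriptions, were read from the same fit. On wood 11 were higher and 18 lower on day 16, and 18 higher and 13 lower on day 9, beside 29.7% and 30.0% of all genes on day 16 and 37.4% and 34.2% on day 9. Library size alone gave 23 and 8 on day 16 and 25 and 10 on day 9. With time 8 rose and 20 fell on spruce, and 13 rose and 20 fell on aspen, beside 23.6% and 27.0% and 31.5% and 32.1% of all genes. On wheat bran 4 rose and 6 fell, and on cotton seed hulls 7 rose and 12 fell, beside 9.13% and 8.16% and 15.7% and 12.7%. Glutamine synthetase DICSQDRAFT_60969, which joins ammonium to glutamate, was the most abundant of them and varied little, with group means between 1621 and 2063 RPKM. The less abundant DICSQDRAFT_112676 and DICSQDRAFT_152093, described as glutamine synthetase/guanido kinase, were looked up after other values were seen. Both were highest on spruce on day 9 and lowest on cotton seed hulls on day 16, with group means of 23.7 to 79.1 RPKM and 25.5 to 54.7 RPKM. The log2 fold change of DICSQDRAFT_60969 on wood was -0.47 ± 0.07 on day 16 and -0.28 ± 0.07 on day 9. Both were called, and library size alone ended both calls (0.02, adjusted p = 0.846, on day 16 and -0.0031, adjusted p = 0.970, on day 9), the sign of the day 16 value turning. The NAD-dependent glutamate dehydrogenase DICSQDRAFT_161738, which in fungi releases ammonium from glutamate, was lower on wood on day 16 (log2 fold change -1.20 ± 0.06, edgeR adjusted p = 3.85e-11) and day 9 (log2 fold change -1.06 ± 0.06, edgeR adjusted p = 7.87e-11). On day 16 DICSQDRAFT_161738 had 60.8 and 63.2 RPKM on spruce and 67.5 and 69.7 on aspen, against 91.0 and 91.9 on wheat bran and 126 and 126 on cotton seed hulls. Cotton seed hull libraries were the highest and spruce and aspen the lowest.

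The amidase signature enzyme DICSQDRAFT_101013, of a family that cleaves amides, showed the largest difference among the most abundant of these genes. On day 16 DICSQDRAFT_101013 had 235 and 165 RPKM on spruce and 281 and 274 on aspen, against 41.3 and 45.6 on wheat bran and 10.6 and 10.6 on cotton seed hulls. Day 9 gave 68.5 and 63.7 RPKM on spruce and 68.9 and 61.9 on aspen, against 21.7 and 19.5 on wheat bran and 6.53 and 5.59 on cotton seed hulls. Wood libraries lay above wheat bran and wheat bran above cotton seed hulls on each day. It was higher on wood on day 16 (log2 fold change 2.97 ± 0.10, edgeR adjusted p = 7.97e-13) and day 9 (log2 fold change 2.28 ± 0.10, edgeR adjusted p = 1.19e-11). With time it rose on all 4 substrates, with called log2 fold changes of 1.59 ± 0.13 for spruce, 1.95 ± 0.13 for aspen, 1.09 ± 0.14 for wheat bran and 1.05 ± 0.17 for cotton seed hulls. The urease DICSQDRAFT_52963, which splits urea into ammonium and carbonate, had 46.2 and 46.8 RPKM on spruce and 32.3 and 38.8 on aspen, against 48.3 and 47.4 on wheat bran and 24.8 and 22.5 on cotton seed hulls on day 16. Day 9 gave 127 and 126 RPKM on spruce and 80.6 and 64.9 on aspen, against 41.5 and 39.7 on wheat bran and 29.1 and 26.9 on cotton seed hulls. Like the urea transporter it was higher on wood on day 9 (log2 fold change 1.23 ± 0.07, edgeR adjusted p = 7.71e-11) and fell by day 16 on spruce (log2 fold change -1.46 ± 0.10, edgeR adjusted p = 4.56e-09) and aspen (log2 fold change -1.17 ± 0.10, edgeR adjusted p = 3.20e-08). Its day 16 value depended on the scaling: wood was lower with TMM (log2 fold change -0.21 ± 0.07, edgeR adjusted p = 0.0187) and higher with library size alone (0.28, adjusted p = 0.00308). The TMM call was also lost without the first aspen, cotton seed hull or wheat bran library (adjusted p = 0.104, 0.173 and 0.0543). A second gene described as urease, the less abundant DICSQDRAFT_150581, had the opposite time course on wood. Spruce averaged 12.9 ± 0.769 RPKM on day 16 against 8.67 ± 0.436 RPKM on day 9, and aspen 12.9 ± 0.827 RPKM against 6.34 ± 1.72 RPKM. Both wood means of day 9 lay below that of wheat bran (11.8 ± 1.84 RPKM) and above that of cotton seed hulls (4.92 ± 0.521 RPKM). The urease accessory protein UreG, DICSQDRAFT_65230, which helps load nickel into urease, was lower on wood on both days with TMM scaling. Its log2 fold changes were -0.73 ± 0.09 on day 16 and -0.75 ± 0.09 on day 9. In RPKM only the wheat bran libraries lay above every wood library on each day. Those of cotton seed hulls (65.1 and 66.1 RPKM) overlapped both woods on day 16. On day 9 they overlapped spruce and lay above aspen. Library size alone moved the median of all genes by 0.48 on day 16, which is large beside the value of that day.

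The peroxisomal copper amine oxidase DICSQDRAFT_85414, which frees ammonium from amines, averaged 73.9 ± 2.29 RPKM on spruce on day 16 against 192 ± 3.92 RPKM on day 9, and 83.8 ± 3.24 RPKM on aspen on day 16 against 164 ± 22.0 RPKM on day 9 (SD, n = 2 each). It fell on spruce (log2 fold change -1.39 ± 0.09, edgeR adjusted p = 2.29e-09) and aspen (log2 fold change -1.10 ± 0.09, edgeR adjusted p = 1.40e-08). The asparaginase genes, which release ammonium from the asparagine of this medium, were looked up after other values were seen. DICSQDRAFT_155788 had group means of 4.27 to 14.1 RPKM, with a log2 fold change on wood of 0.41 ± 0.10 on day 16 (edgeR adjusted p = 0.00207) and no call on day 9 (0.13 ± 0.09). DICSQDRAFT_159266 had group means of 14.3 to 30.3 RPKM and was highest on spruce on day 9. The nitrite reductase DICSQDRAFT_182461, an enzyme of nitrate use looked up in the same way, was lower on wood on day 16 (log2 fold change -1.59 ± 0.09, edgeR adjusted p = 7.70e-11) and day 9 (log2 fold change -0.77 ± 0.08, edgeR adjusted p = 2.49e-07).

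For comparison, 44 of 132 sugar and other MFS transporters were higher and 42 lower on wood on day 16, and 46 higher and 50 lower on day 9. With time 49 of them rose and 29 fell on spruce and 60 rose and 37 fell on aspen, where the nitrogen source genes had more that fell than rose. Of 136 protease and peptidase genes tested, which supply peptides and amino acids, 29 were higher and 66 lower on wood on day 16, and 48 higher and 62 lower on day 9. Over all genes the shares called higher and lower on wood were 29.7% and 30.0% on day 16 and 37.4% and 34.2% on day 9, and with time they were 23.6% and 27.0% on spruce and 31.5% and 32.1% on aspen. These counts describe each list beside the others, and no difference between lists was tested. In the order of genes of the RefSeq list, 3 pairs of members lay close together: DICSQDRAFT_82049 and DICSQDRAFT_54586 with 5 genes between them, DICSQDRAFT_112666 and DICSQDRAFT_70843 with 5, and DICSQDRAFT_61792 and DICSQDRAFT_87422 with 2. Of the last pair, DICSQDRAFT_61792 fell on all 4 substrates. The log2 fold changes of DICSQDRAFT_87422 were -0.58 ± 0.37 for spruce, 0.47 ± 0.37 for aspen, -0.74 ± 0.36 for wheat bran and -1.85 ± 0.37 for cotton seed hulls, and the last of these was called.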

How the data were processed

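Mycelium RNA of 16 libraries was sequenced, 2 for each of 4 substrates on day 16 and day 9. The deposited read counts are unique reads per gene model, whole numbers whose sum equals the library total given in the file headers. RPKM was computed by the authors from those reads, the length of the gene model and the library total, and recomputed values equalled the deposited ones. Genes not listed in a library were taken as 0 reads. Aligner, genome build and strandedness are not given in the sources used, so antisense and overlapping genes cannot be told apart, and members with near-identical copies are uncertain. Identifiers are locus tags, and all 47 members matched the RefSeq list, whose order of genes was used and no coordinates.

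Reads were tested with edgeR 4.0.16 in R 4.3.3. filterByExpr (minimum count 10, total 15) left 10584 of 11410 genes. TMM scaling and a robust quasi-likelihood model with a mean for each of the 8 groups were used on the 16 libraries (8 residual degrees of freedom). The 11 two-sided contrasts were adjusted by Benjamini-Hochberg over the 10584 genes. The fit was tested on simulated counts with the same spread for every gene and group and 200 genes changed. That setting lacks the unequal spread of the real groups, so it does not bear on the sharing of the spread. Standard errors are the fold change divided by the square root of F, and a 95% interval is 1.96 of them to each side. Alternatives were size factors of the DESeq2 type, library size alone, no filter, DESeq2 1.42.0, limma 3.58.1 on log2(RPKM + 1) and on log2(RPKM + 0.1), a replicate block, the compared groups alone, and each library left out. Members are named by rule: all ammonium, urea, purine and allantoin genes, the 8 with the highest group mean, and the called members with the largest changes, the RPKM of the compared libraries not overlapping (not asked for the difference of day effects) and a mean of at least 5 RPKM on the higher side. Of these, the rule took 4 in each direction for wood and 2 for other comparisons, and the 6 most abundant nitrogen metabolism genes. Members, lists and rule were chosen with earlier results of these data known.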

Additional observations from a re-analysis of the deposited data

Results flagged for a closer look

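For 16 of the named members the change between day 9 and day 16 differed between wood and non-woody substrates by the test of that difference in the edgeR fit, and values are that difference, wood minus non-woody, in log2 units ± SE. Among the ammonium and urea genes it was -1.32 ± 0.09 for DICSQDRAFT_112666, 0.91 ± 0.14 for DICSQDRAFT_162887 and -2.19 ± 0.25 for DICSQDRAFT_101546. For the purine permeases DICSQDRAFT_96158 and DICSQDRAFT_101824 it was -0.87 ± 0.14 and -0.55 ± 0.10, and for the allantoinase DICSQDRAFT_110660 it was -0.76 ± 0.12. Of the amino acid permeases, DICSQDRAFT_95231 had -1.82 ± 0.11, DICSQDRAFT_53769 had 0.32 ± 0.10 and DICSQDRAFT_141282 had 0.68 ± 0.10. The peptide transporters with a positive difference were DICSQDRAFT_94742 (0.71 ± 0.14), DICSQDRAFT_82049 (0.74 ± 0.12), DICSQDRAFT_155688 (2.12 ± 0.25) and DICSQDRAFT_87422 (1.25 ± 0.36). Those with a negative one were DICSQDRAFT_65920 (-3.06 ± 0.35), DICSQDRAFT_146855 (-2.45 ± 0.36) and DICSQDRAFT_61792 (-0.28 ± 0.11). Adjusted p from edgeR ranged between 8.63e-10 for DICSQDRAFT_95231 and 0.0472 for DICSQDRAFT_61792, whose call was lost under several alternatives, among them library size alone (-0.06, adjusted p = 0.603). Library size alone moved the median difference over all genes by 0.21.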

How the results depend on the processing

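Of 1976 alternative values of 139 called results of named members, 1878 kept direction and side of the threshold, 98 kept direction and lost the call, and none turned sign. Results without a call and the nitrogen metabolism genes were not among the 139. Of the latter, urease DICSQDRAFT_52963 and glutamine synthetase DICSQDRAFT_60969 turned sign for wood on day 16 with library size alone. Of 151 alternative counts of called members, 137 were within 1.5 times the reported one. Spruce against aspen on day 9 fell to 7 members (19 as reported) with those groups alone. Wheat bran against cotton seed hulls on day 16 had 32 with library size alone, 33 with limma on log2(RPKM + 1) and 32 on log2(RPKM + 0.1), against 21. Day 16 against day 9 had 25 for wheat bran and 25 for cotton seed hulls with those groups alone, against 15 each. Leaving out 1 library gave, on day 16 and then day 9, 36 to 37 and 33 to 38 members for wood, 10 to 17 and 16 to 24 for spruce against aspen, and for the non-woody pair 12 to 16 and 16 to 21. For time it gave 29 to 32 for spruce, 37 to 42 for aspen, 9 to 10 for wheat bran and 9 to 11 for cotton seed hulls, and 35 to 40 for the difference of day effects. The causes of these moves were not tested. Replicate numbers did not pair the libraries: over 28 pairs of groups the correlation of their deviations had a median of 0.02 and ranged between -0.06 and 0.36. With a replicate block the counts were 23 for spruce and aspen on day 9 and 22 for the non-woody pair on day 16. The other 9 counts were the same numbers, and none of the 139 gene results changed its call. Over all 47 members and 11 comparisons, library size alone turned the sign of 6 calls outside those gene results, each with no call on the other side: DICSQDRAFT_180015 for wood on day 9, DICSQDRAFT_178560 and DICSQDRAFT_111664 for wood on day 16, and DICSQDRAFT_178560, DICSQDRAFT_77666 and DICSQDRAFT_70323 for wheat bran on day 16. Genes under about 5 RPKM rest on few reads, such as DICSQDRAFT_20945 with 6 to 56 reads in a library and DICSQDRAFT_133701 with 45 to 136. DICSQDRAFT_65920 was at such levels outside the wood groups of day 9. In those groups it averaged 16.9 RPKM on spruce and 24.3 RPKM on aspen.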

Other observations

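Some members that stayed level across the study stand beside those that moved. The ratio of highest to lowest group mean was under 2-fold for 5 members and over 10-fold for 9, and the most abundant gene of nitrogen assimilation, glutamine synthetase DICSQDRAFT_60969, had group means of 1621 to 2063 RPKM. Of the 7 other genes for nitrate, urea and purine breakdown, urea carboxylase DICSQDRAFT_157925, looked up after other values were seen, rose by day 16 on all 4 substrates, with log2 fold changes of 0.58 ± 0.11 for spruce, 1.03 ± 0.11 for aspen, 1.11 ± 0.13 for wheat bran and 0.85 ± 0.14 for cotton seed hulls (SE, each called by edgeR). Uricase DICSQDRAFT_70560, an enzyme of purine breakdown also looked up afterwards, fell on all 4, with log2 fold changes of -0.76 ± 0.10 for spruce, -0.89 ± 0.10 for aspen, -0.46 ± 0.10 for wheat bran and -0.36 ± 0.10 for cotton seed hulls (each called). Its call on wheat bran was lost without the first day 16 library (adjusted p = 0.0701), and that on cotton seed hulls without the second (adjusted p = 0.127).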
